A study of Mus musculus with 16 samples.

Results

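Cortical interneurons are the inhibitory nerve cells of the cortex, and 28 genes that mark them were followed through the arrays. The genes were taken by name, for GABA synthesis, interneuron transcription factors and subtype markers, with peptides left out. The rule uses no measured value, but earlier results of these data were known when the genes were chosen. A gene was counted where a probe set carried its symbol alone in both tables of array values, which held for 26 of the 28 genes, among 19938 genes of the loss-of-function table and 22180 of the gain-of-function table. *Dlx1* had a probe set of its own in the loss-of-function table alone and is given apart, and *Pthlh* was not analysed here.

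Interneurons arise in the ventral forebrain, where *Dlx* genes set the GABAergic fate, and migrate into the cortex. Cells of the medial ganglionic eminence keep *Lhx6* and mostly become parvalbumin or somatostatin cells, and cells of the caudal eminence make *Prox1*, *Sp8* and the serotonin receptor *Htr3a*. They release GABA, which *Gad1* and *Gad2* make from glutamate and *Slc32a1* loads into vesicles. *Neurod6-Cre* recombines in excitatory neurons and leaves interneurons unrecombined, so that interneurons of the mutants kept their own *Map2k1* while their excitatory partners were recombined. *Map2k1* and *Map2k2* encode the kinases that switch on ERK.

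Cortical RNA from 16 mice was hybridised to Affymetrix arrays, each mouse to its own array. The loss-of-function mutants carried *Map2k1* loxp/loxp, a germ-line *Map2k2*-/- deletion present in every cell, and *Neurod6-Cre* (*Map2k1/2;Neurod6-Cre*), and they were compared with controls at P14 (mutant mice 1, 9 and 11 and control mice 2, 10 and 12) and at P9 (mutants 1 and 4 and controls 2 and 3, which are other animals than the P14 mice of those numbers). The gain-of-function mutants expressed a constitutively active *Map2k1* after *Neurod6-Cre* recombination (*ca-Map2k1;Neurod6-Cre*) and were compared at P21 (mutant mice 1, 3 and 6 and control mice 2, 4 and 5). Controls were littermates with or without Cre, of mixed background like the mutants, and whether they also lacked *Map2k2* is not stated in the study's methods or labels.

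The values are log2 signals, so a difference of 1 is a doubling. A gene was called changed at an adjusted p under 0.05 from the limma test, adjusted by the Benjamini-Hochberg method over all genes, and ± marks the SD over mice unless SE is named. P14 mice 1 and 2 differed as a pair from mice 9 to 12: over all genes their deviations from their own group means correlated at 0.761, although one mouse was a mutant and the other a control. The labels name no batch, so the cause of this split is not known, and the set of mice 1 and 2 is defined here by its mouse numbers. Xist and Y-linked genes marked P14 mutant mice 9 and 11 as female and the other 14 mice as male. Every difference among mice 9 to 12 therefore sets female mutants against male controls and cannot separate sex from genotype. A P14 fit with sex as a covariate rests on mutant mouse 1 against the controls. P9 and P14 values were normalized apart, with array medians of 6.13 to 6.18 at P9 and 7.91 to 8.08 at P14, so levels are compared within an age alone. In cortical RNA, fewer interneurons and less RNA per interneuron cannot be told apart. The arrays do not show which cells a transcript came from.

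The promoters of *Gad1* and *Gad2* are shown because these enzymes make the same transmitter and their values are set side by side below. Each run is 250 bases before to 50 bases after the start site on the plus strand of the RefSeq GRCm38.p6 assembly, at chr2:70561879-70562178 for *Gad1* and chr2:22622077-22622376 for *Gad2*, with capitals marking matches on either strand to TATAAA, the homeodomain core TAATTA, the core TGACG of cAMP response elements and GCGGGGGCG, a site bound by Egr factors.
Gad1: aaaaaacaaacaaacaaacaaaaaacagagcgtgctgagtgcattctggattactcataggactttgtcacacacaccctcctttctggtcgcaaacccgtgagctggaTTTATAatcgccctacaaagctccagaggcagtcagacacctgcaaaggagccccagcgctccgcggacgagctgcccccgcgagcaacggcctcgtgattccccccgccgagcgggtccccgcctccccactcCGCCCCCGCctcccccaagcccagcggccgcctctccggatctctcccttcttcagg
Gad2: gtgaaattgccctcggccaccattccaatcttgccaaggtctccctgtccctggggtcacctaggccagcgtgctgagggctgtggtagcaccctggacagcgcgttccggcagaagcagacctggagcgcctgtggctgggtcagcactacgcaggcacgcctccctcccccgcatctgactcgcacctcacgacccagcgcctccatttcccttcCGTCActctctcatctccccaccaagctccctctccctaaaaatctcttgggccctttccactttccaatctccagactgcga
The *Gad1* window held TATAAA and GCGGGGGCG, and the *Gad2* window held TGACG. Of all 32851 promoter windows, TATAAA occurred in 13.6%, TAATTA in 5.29%, TGACG in 20.8% and GCGGGGGCG in 2.91%. The table holds 35 windows for 19 of the measured members, since a gene can have several start sites, and of these windows 17.1% held TATAAA, 5.71% TAATTA, 11.4% TGACG and 8.57% GCGGGGGCG. By gene, GCGGGGGCG was found in *Gad1*, *Reln* and *Satb1*, TGACG in *Dlx2*, *Gad2*, *Nos1* and *Sox6*, TAATTA in *Adarb2* and *Sp8*, and TATAAA in *Gad1*, *Lhx6*, *Prox1*, *Sox6* and *Sp8*. The GC content was 60.0% in the *Gad1* window and 61.3% in the *Gad2* window. These are letter matches and not tested binding sites.

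None of the 26 interneuron genes was called changed at P9, P14 or P21, while 0.0752%, 1.09% and 0.0% of all genes were. At P14 the median change of the 26 genes was 0.13 (0.12 with arrays centred and 0.14 after quantile normalization), beside 0.02 over all genes, and their mean was higher in mutants for 21 of 26, beside 58.3% of all genes. The median was 0.09 at P9 beside 0.01, with 18 of 26 higher and 51.8% of all genes. At P21, with active *Map2k1*, it was 0.02 beside 0.01, turning to -0.02 with arrays centred and to -0.03 without control mouse 4, with 15 of 26 higher and 54.3% of all genes.

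Genes whose mutant and control mice did not overlap were counted next. At P14, 9 of 26 members lay higher in every mutant than in any control and 0 lay lower, beside 7.11% and 6.52% of all genes. At P9, with 2 mice a group, 13 of 26 were higher without overlap and 2 lower, beside 22.0% and 19.7%. At P21, 6 were higher and 2 lower, beside 8.15% and 7.67%. These members are not independent of each other, and no test was made over them as a group.

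At an unadjusted p under 0.05, 5 of 26 members were higher and 0 lower at P14, beside 4.05% and 4.38% of all genes. At P9, 3 were higher and 2 lower, beside 5.32% and 5.21%. At P21, 4 were higher and 2 lower, beside 5.12% and 5.31%. Over all genes at P21, 2313 had an unadjusted p under 0.05 and 0 were called by limma.

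The intervals bound how large a change could have been missed. The 95% interval of the change lay within 1.5-fold in either direction for 21 of 26 members at P9, 22 at P14 and 23 at P21, beside 90.9%, 87.3% and 92.9% of all genes. With 2 mice a group, the P9 intervals may be too narrow and the P9 p-values too small. The interval reached a median of 0.23 to either side of the change over members at P9, 0.25 at P14 and 0.21 at P21. The 4 members whose P14 interval reached beyond 1.5-fold were *Calb2*, *Ndnf*, *Kit* and *Nos1*, and in the first 3 mice 1 and 2 averaged 0.78, 0.72 and 0.49 above mice 9 to 12.

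**Figure D1:**
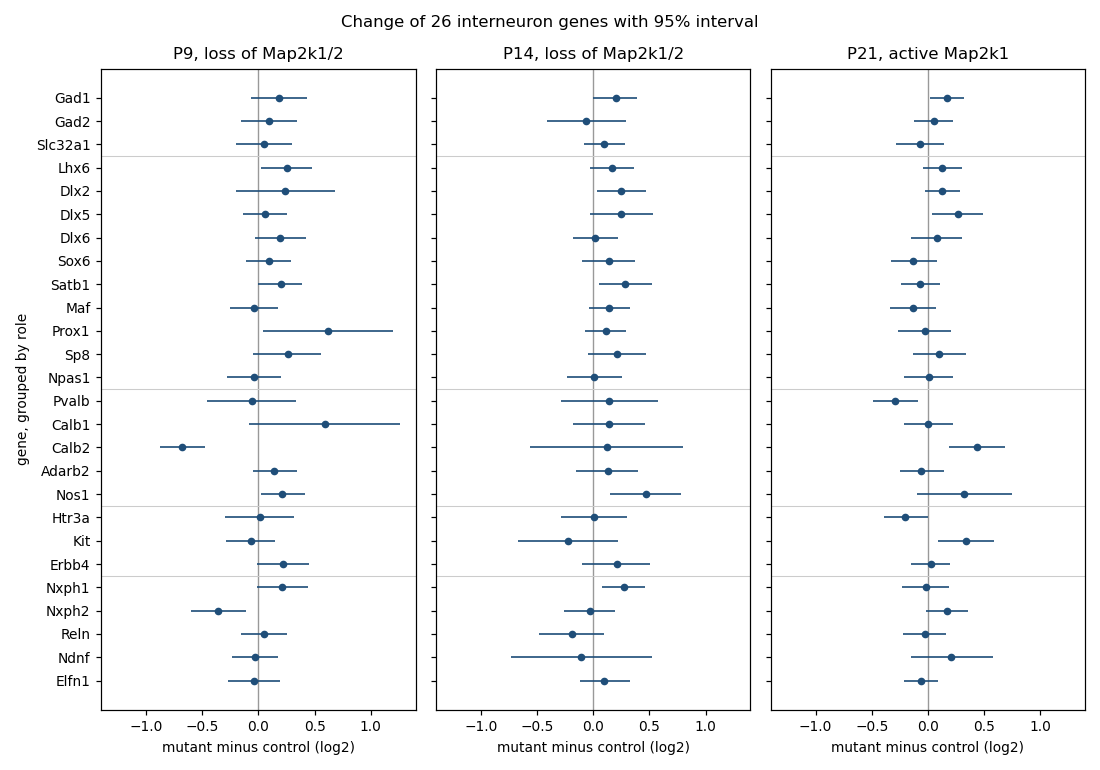
Mutant minus control on the log2 scale (x axis) for the 26 genes (y axis, grouped by role with grey lines between groups) in the P9, P14 and P21 comparisons. Points are the fitted changes and bars their 95% intervals. Most points lie within 0.3 of 0, and *Calb2* at P9, at -0.68, lies farthest below it.

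The mice were next compared one by one over the 26 genes. The median deviation of a P14 mutant from the control mean was 0.14 in mouse 1, 0.17 in mouse 9 and 0.09 in mouse 11, against -0.03 to 0.02 in the controls. At P9 it was 0.11 and 0.09 in the mutants and 0.01 and -0.01 in the controls. At P21 the mutants, at -0.02 to 0.05, lay inside the control range of -0.10 to 0.06. All 5 loss-of-function mutants stood above every control of their own age in this median, and the P21 mutants did not. The deviations are taken from the control mean, so controls are centred by construction, and the 2 P9 controls mirror each other. The comparison therefore restates the median change given above and is no separate evidence for it. Over all genes the P14 mutants deviated by -0.03, 0.06 and 0.03, the P9 mutants by at most 0.01 and the P21 mutants by at most 0.02.

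**Figure D2:**
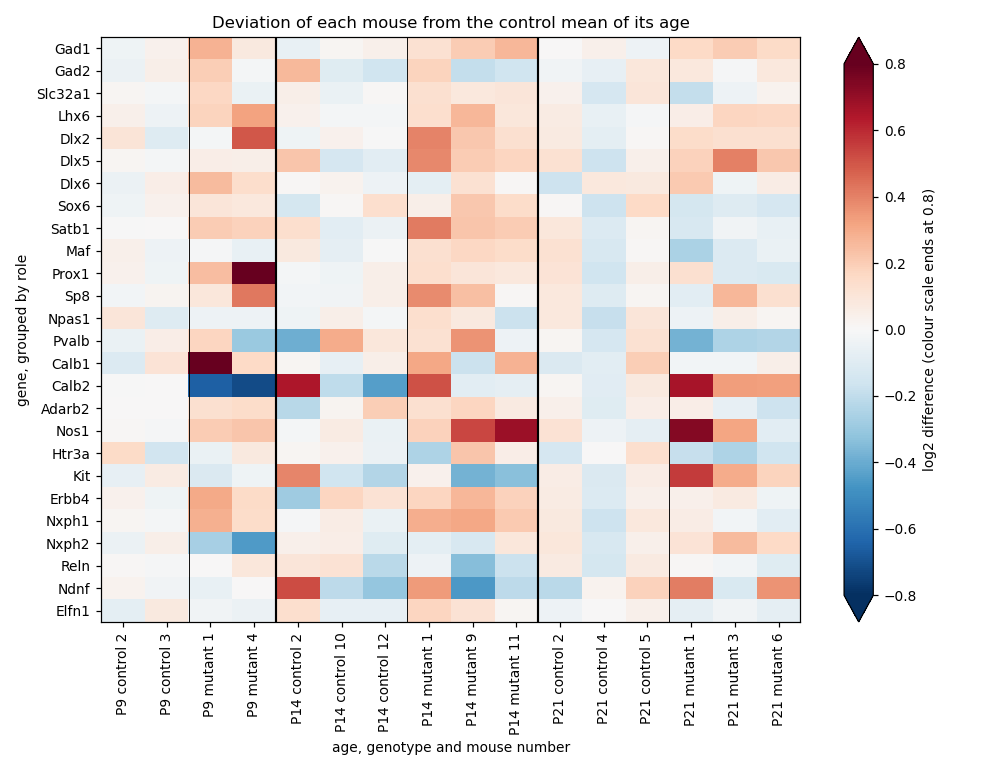
Log2 difference of each mouse (x axis, by age, genotype and mouse number) from the control mean of its age, for the 26 genes (y axis, grouped by role). Red is higher and blue lower, thick lines part the ages and thin lines the genotypes. P14 control mouse 2 and mutant mouse 1 share raised *Calb2* and *Ndnf*.

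*Gad1* encodes GAD67, the enzyme behind most of the GABA of these cells, and its values were a little higher in the mutants of each comparison. At P14 they were 10.96, 11.03 and 11.06 for controls 2, 10 and 12 and 11.14, 11.22 and 11.28 in mutants 1, 9 and 11. Every mutant was above every control, by 0.20 on average (SE 0.08, 95% interval 0.00 to 0.39, limma adjusted p = 0.572). The difference was 0.21 among mice 9 to 12 and 0.18 between mice 1 and 2.

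At P9 *Gad1* read 9.85 and 9.92 in controls 2 and 3 and 10.16 and 9.96 in mutants 1 and 4. Mutants and controls did not overlap, and the difference of 0.18 (SE 0.10, limma adjusted p = 0.597) was 0.08 without mutant mouse 1. At P21 the controls (mice 2, 4 and 5) were at 8.16, 8.20 and 8.12 and the mutants (mice 1, 3 and 6) at 8.32, 8.36 and 8.31. Again no mouse overlapped, and the difference was 0.17 (SE 0.06, limma adjusted p = 0.411). The unadjusted p-values were 0.122 at P9, 0.0458 at P14 and 0.0282 at P21, and the highest upper bound of the 95% intervals was 0.43.

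*Gad2* encodes GAD65, the nerve-terminal form of the enzyme. Its P14 values were 10.87, 10.51 and 10.45 for controls 2, 10 and 12 and 10.79, 10.42 and 10.45 in mutants 1, 9 and 11. Mice 1 and 2 were the high pair, on either side of the comparison, and the mutants differed from controls by -0.06 (SE 0.15, limma adjusted p = 0.995). The same comparison among mice 9 to 12 gave -0.05 and that of mouse 1 with mouse 2 gave -0.08. *Gad2* was at 9.37 and 9.46 in P9 controls and 9.61 and 9.40 in P9 mutants, and the groups overlapped with a difference of 0.09 (SE 0.10, limma adjusted p = 0.818). At P21 it was at 9.98, 9.94 and 10.10 in controls and 10.09, 10.00 and 10.09 in mutants, which overlapped at a difference of 0.05 (SE 0.07, limma adjusted p = 0.848).

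*Slc32a1*, the vesicular GABA transporter, is the third gene of GABA synthesis and packaging. At P14 it read 9.12, 9.02 and 9.08 in controls 2, 10 and 12 and 9.20, 9.16 and 9.17 in mutants 1, 9 and 11. No mutant overlapped with a control at a difference of 0.10 (95% interval -0.08 to 0.28, limma adjusted p = 0.952). It was 8.44 and 8.41 in P9 controls against 8.59 and 8.37 in P9 mutants, which overlapped (0.05, SE 0.10, limma adjusted p = 0.906). The P21 values of 8.00, 7.83 and 8.06 in controls and 7.77, 7.92 and 7.99 in mutants overlapped as well (-0.07, SE 0.09, limma adjusted p = 0.841), and with the mean of its 2 probe sets the P21 difference was 0.06.

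**Figure D3:**
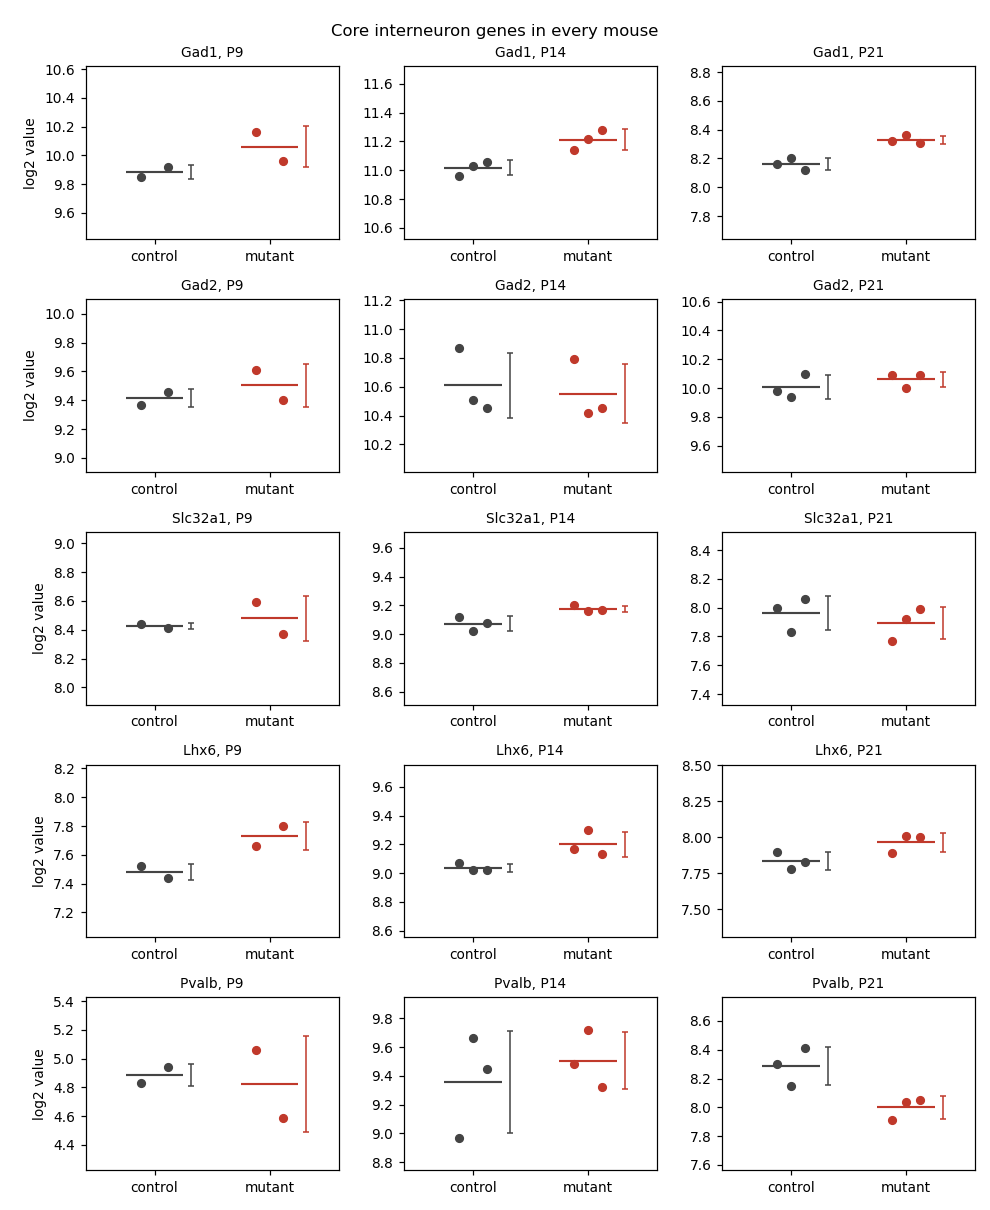
Log2 value (y axis) of *Gad1*, *Gad2*, *Slc32a1*, *Lhx6* and *Pvalb* in each control and mutant mouse at P9, P14 and P21, with lines at the group means and bars of 1 SD. The axes differ between panels and none starts at 0. *Gad1* mutants lie above their controls at each age, and *Pvalb* mutants lie below theirs at P21 alone.

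Of the transcription factors, *Lhx6*, which marks and specifies interneurons of the medial ganglionic eminence, was higher in mutants on average in the 3 comparisons. It read 7.52 and 7.44 in P9 controls 2 and 3 and 7.66 and 7.80 in P9 mutants 1 and 4. Both mutants were above both controls, by 0.25 (SE 0.09, limma unadjusted p = 0.0354, adjusted p = 0.429). At P14 the control values of 9.07, 9.02 and 9.02 (mice 2, 10 and 12) and the mutant values of 9.17, 9.30 and 9.13 (mice 1, 9 and 11) did not overlap either, at a difference of 0.17 (SE 0.08, limma adjusted p = 0.732). The P21 controls were at 7.90, 7.78 and 7.83 and the mutants at 7.89, 8.01 and 8.00, which overlapped at 0.13 (SE 0.07, limma adjusted p = 0.593).

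The *Dlx* homeobox genes lie in neighbouring pairs, *Dlx1* with *Dlx2* on chromosome 2 and *Dlx5* with *Dlx6* on chromosome 6. *Dlx2* at P14 was at 8.11, 8.18 and 8.14 for controls 2, 10 and 12 and 8.54, 8.36 and 8.27 in mutants 1, 9 and 11. The groups were without overlap, mouse 1 was the highest, and the difference was 0.25 (SE 0.09, limma adjusted p = 0.469). It was 0.16 among mice 9 to 12 and 0.43 between mice 1 and 2. At P9 *Dlx2* read 7.04 and 6.83 in controls 2 and 3 and 6.92 and 7.43 in mutants 1 and 4. The P9 groups overlapped at a difference of 0.24 (SE 0.18, limma adjusted p = 0.699). At P21 the difference was 0.13 (SE 0.07, limma adjusted p = 0.566).

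*Dlx1*, measured in the loss-of-function arrays alone, was at 8.21 and 8.22 in P9 controls and 8.44 and 8.63 in P9 mutants. The mutants were above the controls by 0.32 (SE 0.10, limma unadjusted p = 0.0165, adjusted p = 0.348). At P14 it read 9.15, 8.94 and 9.11 in controls 2, 10 and 12 and 9.67, 9.21 and 9.22 in mutants 1, 9 and 11. The groups did not overlap at a difference of 0.30 (SE 0.14, limma adjusted p = 0.677).

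*Dlx5* passed the unadjusted threshold at P21, where controls were at 7.23, 6.94 and 7.15 and mutants at 7.29, 7.51 and 7.32. The mutants lay above the controls by 0.27 (SE 0.10, limma adjusted p = 0.407). At P14 *Dlx5* differed by 0.25 and at P9 by 0.06. *Dlx6* differed by 0.19 at P9, 0.02 at P14 and 0.08 at P21, and none of these passed the unadjusted threshold.

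*Satb1*, which medial interneurons need for their maturation and which excitatory neurons also express, was at 11.58, 11.36 and 11.40 in P14 controls 2, 10 and 12. The P14 mutants were at 11.86, 11.67 and 11.65 (mice 1, 9 and 11). Mutants and controls did not overlap, and the difference of 0.28 (SE 0.10, limma adjusted p = 0.414) was the same among mice 9 to 12, at 0.28, and between mice 1 and 2, at 0.28. With mice 1 and 2 as a block its limma adjusted p was 0.0234. *Satb1* differed by 0.20 at P9 and by -0.07 at P21.

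*Prox1*, a factor of caudal interneurons, was highest in a single P9 mouse. It was at 6.41 and 6.34 in P9 controls 2 and 3 and 6.62 and 7.37 in P9 mutants 1 and 4. No mutant overlapped with a control at a difference of 0.62 (SE 0.23, limma unadjusted p = 0.0388, adjusted p = 0.441), which was 0.24 without mutant mouse 4 and 1.00 without mutant mouse 1. *Prox1* is also strongly made by granule cells of the hippocampal dentate gyrus. The mean of 6 hippocampal marker genes was 5.06 to 5.07 in P9 controls and 5.07 to 5.19 in P9 mutants. This mean covers genes that went both ways at P9. *Lct* differed by 0.41, *Tdo2* by 0.26 and *Dsp* by 0.25, *C1ql2* and *Spink8* by -0.02 each, and *Fibcd1* by -0.48. The part of hippocampal cells in the *Prox1* result was not tested. At P14 *Prox1* differed by 0.11 and at P21 by -0.03.

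The other 4 transcription factors had no unadjusted p under 0.05. *Sp8*, of caudal interneurons, differed by 0.26 at P9, 0.21 at P14 and 0.10 at P21. Its signal was low, at the 31.4 to 37.9 percentile of genes at P9, 21.8 to 32.9 at P14 and 16.6 to 22.2 at P21. *Sox6*, which acts downstream of *Lhx6*, differed by 0.09, 0.14 and -0.13 in the same order, and *Maf*, a factor of medial interneurons, by -0.04, 0.14 and -0.13. *Npas1*, a basic helix-loop-helix PAS factor, stayed between -0.04 and 0.01. Of the 10 measured transcription factors of the 26 genes, all 10 had a higher mean in P14 mutants, beside 58.3% of all genes. These include *Npas1* at 0.01 and *Dlx6* at 0.02. At P14, 5 were higher without overlap and 0 lower, beside 7.11% and 6.52%. A higher mean was found for 8 of the 10 at P9 (51.8% of all genes) and 6 of the 10 at P21 (54.3%).

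Calcium-binding proteins mark subtypes of interneuron. Parvalbumin, the product of *Pvalb*, marks fast-spiking cells, and its transcript rises late in development. *Pvalb* ranked at the 20.5 to 27.1 percentile of genes at P9 and at the 61.8 to 79.6 percentile at P14. P9 values were 4.83 and 4.94 in controls and 5.06 and 4.59 in mutants, which overlapped (-0.06, SE 0.16, limma adjusted p = 0.934). P14 values were 8.97, 9.66 and 9.45 for controls 2, 10 and 12 and 9.48, 9.72 and 9.32 in mutants 1, 9 and 11. The spread of the controls was wide (SD 0.36), and the difference of 0.14 (limma adjusted p = 0.991) was -0.04 among mice 9 to 12 and 0.51 between mice 1 and 2.

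At P21, with active *Map2k1*, *Pvalb* lay lower in mutants. The controls were at 8.30, 8.15 and 8.41 (mice 2, 4 and 5) and the mutants at 7.91, 8.04 and 8.05 (mice 1, 3 and 6). Every mutant was below every control, at a mean difference of -0.29 (SE 0.09, 95% interval -0.49 to -0.09, limma unadjusted p = 0.0106, adjusted p = 0.327). The difference ranged from -0.36 to -0.23 over the alternatives run.

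*Calb2*, encoding calretinin of bipolar interneurons and of several other cell types, had the lowest p of the members at P9. It was at 8.03 and 8.04 in P9 controls 2 and 3 and 7.38 and 7.32 in mutants 1 and 4. Both mutants lay below both controls, at a difference of -0.68 (SE 0.08, 95% interval -0.88 to -0.48, limma unadjusted p = 0.000172, adjusted p = 0.095). The adjusted p was 0.0353 when the dimmest genes were left out and 0.012 with trended and robust moderation, but 0.471 with no moderation, 0.717 with all groups in 1 fit and 0.218 to 0.373 when a mouse was left out. The change stayed between -0.72 and -0.65 over the alternatives. At P21 the controls were at 6.64, 6.53 and 6.70 and the mutants at 7.28, 6.96 and 6.95. Here the mutants were above the controls by 0.44 (SE 0.11, limma unadjusted p = 0.00349, adjusted p = 0.253).

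At P14 *Calb2* was highest in mice 1 and 2. Control mice 2, 10 and 12 were at 9.43, 8.58 and 8.34 and mutant mice 1, 9 and 11 at 9.29, 8.70 and 8.71. Mice 1 and 2 averaged 0.78 above mice 9 to 12, while the mutants differed from controls by 0.12 (SE 0.29, limma adjusted p = 0.995). *Calb1*, the calbindin gene, which excitatory and striatal cells also express, differed by 0.59 at P9 (SE 0.27), where mutant mouse 1 was at 9.43 and mouse 4 at 8.56 beside controls of 8.29 and 8.51, and by 0.14 at P14 and 0.00 at P21.

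*Nos1*, neuronal nitric oxide synthase, is made strongly by rare somatostatin cells with long axons and weakly by other interneurons. At P14 it was at 9.30, 9.38 and 9.26 in controls 2, 10 and 12 and 9.50, 9.85 and 10.00 in mutants 1, 9 and 11. No mouse overlapped, and the female mutants 9 and 11 were the highest. The difference was 0.47 (SE 0.13, 95% interval 0.15 to 0.78, limma unadjusted p = 0.00924, adjusted p = 0.239), or 0.60 among mice 9 to 12 and 0.20 between mice 1 and 2.

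With mice 1 and 2 as a block, 3 of the 26 members were called at P14, *Satb1*, *Nos1* (limma adjusted p = 0.0275) and *Nxph1*, beside 6.69% of all genes. With sex as a covariate the *Nos1* difference was 0.18 (limma adjusted p = 0.668). That fit sets mouse 1 against the 3 controls, since mutants 9 and 11 are the females, and the part of sex in the result cannot be told apart from that of the 2 mice. At P9, where the mice were male, *Nos1* read 7.78 and 7.76 in controls and 7.97 and 7.99 in mutants, without overlap (0.21, SE 0.08, limma unadjusted p = 0.038, adjusted p = 0.438). At P21 it differed by 0.32 (SE 0.18), with mutant values of 8.44, 8.02 and 7.62 around controls of 7.82, 7.66 and 7.63. *Adarb2*, an RNA-binding protein of caudal interneurons, differed by 0.14, 0.13 and -0.06 at P9, P14 and P21.

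The receptors showed no shared direction. *Kit*, the receptor of stem cell factor, was at 8.55, 8.38 and 8.55 in P21 controls and 9.05, 8.79 and 8.67 in P21 mutants. The mutants were above the controls by 0.34 (SE 0.11, limma unadjusted p = 0.0146, adjusted p = 0.355). *Htr3a*, the serotonin-gated ion channel of caudal interneurons, was at 7.44, 7.58 and 7.71 in P21 controls and 7.39, 7.33 and 7.42 in mutants. The mutants were lower without overlap, at a difference of -0.20 (SE 0.08, limma unadjusted p = 0.047, adjusted p = 0.472). In the loss-of-function mice *Kit* differed by -0.07 at P9 and -0.22 at P14 and *Htr3a* by 0.01 at either age. *Erbb4*, the neuregulin receptor that interneurons carry, differed by 0.22, 0.21 and 0.03 at P9, P14 and P21.

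Among secreted and synaptic proteins, *Nxph1*, a ligand of neurexins, was at 9.83, 9.90 and 9.79 in P14 controls 2, 10 and 12 and 10.13, 10.15 and 10.05 in mutants 1, 9 and 11. The groups were without overlap, and the difference of 0.27 (SE 0.08, limma unadjusted p = 0.0111, adjusted p = 0.267) was 0.26 among mice 9 to 12 and 0.30 between mice 1 and 2. With mice 1 and 2 as a block its limma adjusted p was 0.046. In its second, dimmer probe set the P14 groups overlapped. That probe set read 8.36, 8.90 and 8.86 in controls 2, 10 and 12 and 8.73, 9.05 and 9.08 in mutants 1, 9 and 11. With the mean of probe sets the P14 difference was 0.26 (limma adjusted p = 0.567). *Nxph1* differed by 0.21 at P9 and -0.02 at P21. *Nxph2*, its relative, was lower in P9 mutants, at 5.67 and 5.48 against 5.89 and 5.98 in controls. That difference was -0.36 (SE 0.10, limma unadjusted p = 0.0123, adjusted p = 0.33).

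The remaining secreted and synaptic members had no unadjusted p under 0.05. *Reln*, the extracellular matrix protein reelin, differed by 0.05 at P9, -0.19 at P14 and -0.03 at P21. *Ndnf*, of layer 1 interneurons, differed by -0.03, -0.11 and 0.21, and at P14 mice 1 and 2 averaged 0.72 above mice 9 to 12. *Elfn1*, which recruits presynaptic glutamate receptors onto inputs of somatostatin cells, stayed between -0.06 and 0.10.

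**Figure D4:**
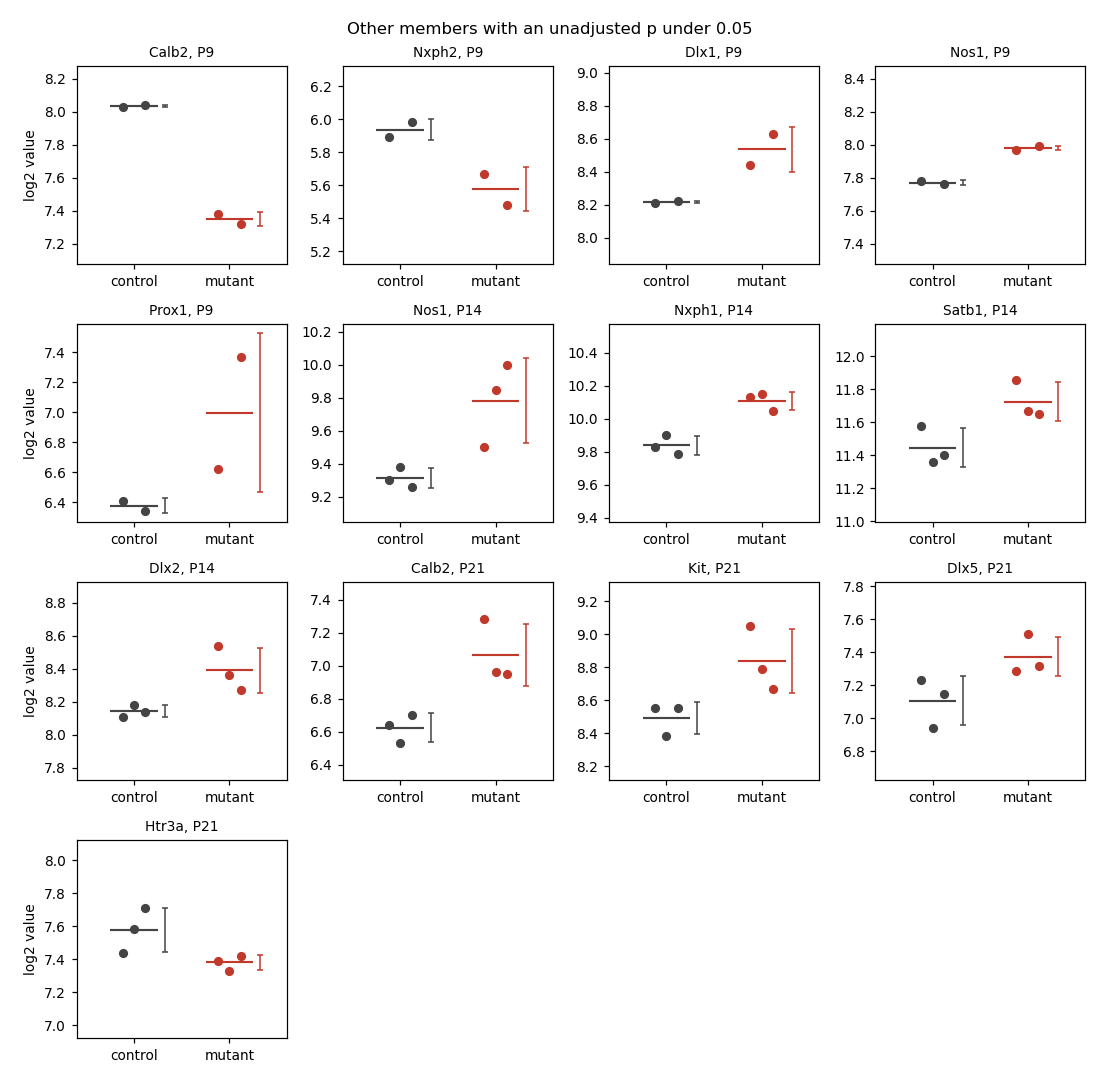
Log2 value (y axis) in each control and mutant mouse for the members beyond the core genes with an unadjusted p under 0.05, at the age named above each panel. Lines are group means, bars are 1 SD, and axes differ between panels and do not start at 0. The groups do not overlap in any panel, and *Prox1* at P9 rests on a single high mutant.

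The change of a member at P9 was compared with that at P14 by the interaction term of limma. None of the 26 members passed, and none had an unadjusted p under 0.05, while 0.0% of all genes were called and 849 had an unadjusted p under 0.05. The lowest p among members was 0.052, for *Nxph2*, whose P14 change exceeded its P9 change by 0.32. Its signal was low, at the 32.9 to 39.8 percentile of genes at P9 and the 11.8 to 17.7 percentile at P14. The interval for *Calb2* ran from -0.08 to 1.69 and was wide. Across all 3 comparisons, 9 of the 26 genes had a higher mean in mutants in each and 0 a lower mean in each. The 9 were *Gad1*, *Calb1*, *Lhx6*, *Dlx2*, *Dlx5*, *Dlx6*, *Erbb4*, *Sp8* and *Nos1*. Some of these differences were close to none, at 0.00 for *Calb1* at P21, 0.02 for *Dlx6* at P14 and 0.03 for *Erbb4* at P21. The same count was not made over all genes, so these counts have no background to be judged against. The P21 mutants carry an activating allele, and their arrays are another type.

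Of 8 listed genes for handling released GABA, 7 were measured, and 0 were called at any age. Their median change was 0.01 at P9, -0.02 at P14 and -0.08 at P21. The astrocyte GABA transporter *Slc6a11* had the lowest p, at P21, with a difference of -0.24 (limma unadjusted p = 0.0211, adjusted p = 0.38).

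Of 20 other interneuron genes 18 were measured. At P14 1 was called (beside 1.09% of all genes), *Crhbp*, a binding protein for corticotropin-releasing hormone found in somatostatin cells, which fell. It was at 9.52, 9.31 and 9.17 for controls 2, 10 and 12 and 8.78, 8.62 and 8.63 in mutants 1, 9 and 11. The groups lay apart, at a difference of -0.65 (SE 0.11, limma adjusted p = 0.049), with -0.61 among mice 9 to 12 and -0.74 between mice 1 and 2. Leaving out mutant mouse 1 gave a limma adjusted p of 0.0441, and leaving out any other mouse gave 0.0969 to 0.265. It was 0.34 with sex as a covariate, at a difference of -0.55, and 0.198 with no moderation. *Crhbp* differed by -0.42 at P9 (limma adjusted p = 0.184) and by 0.22 at P21 (limma adjusted p = 0.398). *Rbp4* differed by -0.53 at P14 and -0.40 at P9, and the glutamate receptor subunit *Gria4* by -0.24 and 0.03. Whether interneurons or excitatory neurons made these transcripts cannot be read from cortical RNA, and the part of excitatory neurons was not tested. The median of the list was 0.02 at P9, 0.00 at P14 and 0.05 at P21. Before adjustment, 1 gene was higher and 4 lower at P9 (5.32% and 5.21% of all genes), 0 higher and 4 lower at P14 (4.05% and 4.38%), and 1 higher and 2 lower at P21 (5.12% and 5.31%).

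Genes that fast-spiking cells use for rapid firing and release, which excitatory neurons also express in part, were measured for all 11 listed. At P14 1 was called (beside 1.09% of all genes), *Syt2*, the calcium sensor of fast release from parvalbumin terminals, which rose. It was at 8.86, 8.86 and 8.51 in controls 2, 10 and 12 and 9.55, 9.64 and 9.48 in mutants 1, 9 and 11. The mutants exceeded the controls by 0.81 (SE 0.12, limma adjusted p = 0.0284), with 0.88 among mice 9 to 12 and 0.69 between mice 1 and 2, and the call was kept in 10 of 16 alternatives. It was lost without control mouse 10 (limma adjusted p = 0.0983) or 12 (0.0916), without mutant mouse 9 (0.142) or 11 (0.14), with sex as a covariate (0.191) and with no moderation (0.162). *Syt2* differed by 0.47 at P9 (limma adjusted p = 0.456) and by -0.36 at P21 (limma adjusted p = 0.285).

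*Acan*, the aggrecan of perineuronal nets, read 7.67, 7.74 and 7.55 in P14 controls 2, 10 and 12 and 8.11, 8.32 and 8.10 in mutants 1, 9 and 11. The difference was 0.52 (limma adjusted p = 0.0712), and it was 0.53 at P9 (limma adjusted p = 0.25) and -0.30 at P21 (limma adjusted p = 0.341). *Kcnc1*, the Kv3.1 potassium channel, differed by 0.21, 0.33 and -0.31 at P9, P14 and P21. Over the list the median was 0.21 at P9, 0.13 at P14 and -0.19 at P21. At P14, 7 of the 11 had a higher mean in mutants, or 63.6% beside 58.3% of all genes. The other 4 had a lower one, *Ppargc1a* (-0.15), *Kcnc2* (-0.12), *Hapln1* (-0.12) and *Cox6a2* (-0.07). At P21, 9 had a lower mean and 2 a higher one, *Cox6a2* (0.32) and *Kcns3* (0.13), while 54.3% of all genes had a higher mean. Before adjustment, 4 of 11 passed as higher and 1 as lower at P9, 3 higher and 0 lower at P14, and 1 higher and 6 lower at P21. Over all genes these shares were 5.32% higher and 5.21% lower at P9, 4.05% and 4.38% at P14, and 5.12% and 5.31% at P21. The mean level of the list was 9.56 to 9.66 in P14 controls and 9.74 to 9.79 in P14 mutants, and 8.93 to 9.01 in P21 controls and 8.76 to 8.87 in P21 mutants. These genes are carried by other neurons too, and the difference between the lists at P14 and P21 was not tested.

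**Figure D5:**
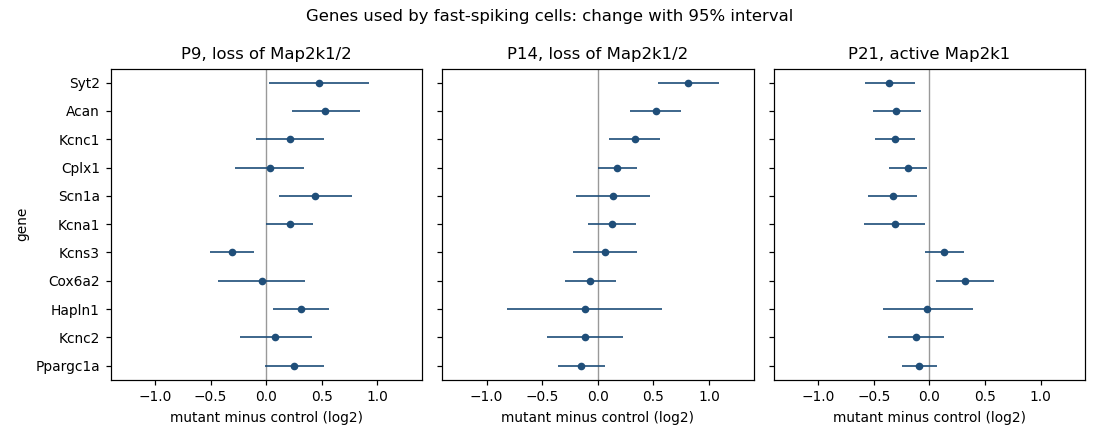
Mutant minus control on the log2 scale (x axis) for the 11 genes used by fast-spiking cells (y axis), in the P9, P14 and P21 comparisons, with 95% intervals as bars. *Syt2* lies at 0.47, 0.81 and -0.36.

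Partners of the interneuron receptors were read from 12 listed genes, of which 11 were measured. At P14 1 was called (beside 1.09% of all genes), *Kitl*, the ligand of *Kit*, which fell. Its values were 9.24, 9.62 and 9.60 for controls 2, 10 and 12 and 8.76, 8.78 and 8.78 in mutants 1, 9 and 11. The mutants differed from the controls by -0.72 (SE 0.12, limma adjusted p = 0.0403), with -0.83 among mice 9 to 12 and -0.48 between mice 1 and 2, and the call was kept in 9 of 16 alternatives. Leaving out a single mouse ended the call, with limma adjusted p-values of 0.056 to 0.203, for every mouse but control mouse 2, and so did sex as a covariate (0.22) and no moderation (0.19). At P9 *Kitl* differed by -0.09 and at P21 by 0.09. *Nrg3*, a neuregulin that binds *Erbb4*, differed by -0.22 at P14, and *Lrp8*, a reelin receptor, by -0.28. The median of the list was -0.02, 0.07 and -0.03 at P9, P14 and P21. Its genes with an unadjusted p under 0.05 numbered 1 higher and 0 lower at P9 (5.32% and 5.21% of all genes). They numbered 0 higher and 3 lower at P14 (4.05% and 4.38%), and 0 higher and 1 lower at P21 (5.12% and 5.31%).

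The peptide genes of interneurons, 6 of 6 measured, had 0 called at any age. Their median was -0.23 at P9, -0.37 at P14 and 0.06 at P21. At P14, 0 were higher and 4 lower with an unadjusted p under 0.05 (4.05% and 4.38% of all genes). The 4 were *Cck* (-0.69), *Tac1* (-1.35), *Npy* (-0.45) and *Sst* (-0.29), while *Cort* differed by -0.14 and *Vip* by 0.11. At P9, 0 were higher and 3 lower (5.32% and 5.21%), *Cck* (-0.62), *Sst* (-0.49) and *Cort* (-0.37). *Sst* differed by 0.04 at P21.

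Genes of other cell types were read in the same mice, where 1.09% of all genes were called at P14. Of 8 measured excitatory neuron genes, 1 was called at P14, *Nrn1*, a plasticity gene, which fell by 0.93 (limma adjusted p = 0.00671, or 0.0555 without mutant mouse 11 and 0.0557 without control mouse 12, 0.0617 with sex as a covariate and 0.0725 with no moderation). The mean level of that list was 10.77 to 10.90 in P14 controls and 10.60 to 10.68 in mutants, 9.56 to 9.62 and 9.47 to 9.49 at P9, and 9.84 to 9.94 and 9.82 to 9.84 at P21. The median of its changes was 0.08, -0.01 and -0.06 at P9, P14 and P21. At P14, 4 of the 8 had a higher mean in mutants (58.3% of all genes) and 4 a lower one. Before adjustment, 1 was higher and 3 lower (4.05% and 4.38% of all genes). The higher one was *Nptx1* (0.39), and the lower ones were *Nrn1*, *Slc17a6* (-0.79) and *Tbr1* (-0.34). *Slc17a7* differed by -0.06 and *Camk2a* by 0.03. Striatal neurons also make GABA and *Dlx* genes, and the striatal list had medians of 0.24, 0.36 and -0.05. Of 7 measured striatal genes 0 were called at P14, with 3 higher and 1 lower before adjustment (4.05% and 4.38% of all genes), and the mean of the list was 8.78 to 8.87 in controls and 8.86 to 9.26 in mutants, with 7.40 to 7.41 and 7.53 to 7.59 at P9. The dopamine receptor *Drd1* differed by 0.36 at P14 (limma adjusted p = 0.219) and *Rgs9*, a striatal signalling regulator, by 0.47 (limma adjusted p = 0.301). *Pde10a*, of the same list, went the other way at P14, by -0.68 with overlapping groups (limma adjusted p = 0.529). At P9, 5 of the 7 genes had a higher mean in mutants (51.8% of all genes) and 2 a lower one, *Drd2* (-0.32) and *Pde10a* (-0.30). At P21 the oligodendrocyte genes had a median of -0.45, with 0 of 6 called and 4 lower before adjustment (5.31% of all genes). The lists for hippocampus, thalamus, olfactory bulb, Cajal-Retzius cells, oligodendrocyte precursors, astrocytes, microglia, endothelial cells, and choroid plexus and blood had 0 called at any age, with medians from -0.28 to 0.19. The part of these cell types in the interneuron values was not tested.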

How the data were processed

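Groups follow the GEO labels, and each array is 1 mouse. Tissue and kit differ between the labels (sensory cortex, miRNeasy) and the study's methods (dorsal cortices, Trizol with RNeasy Mini). Deposited values are log2 signals that the authors made with RMA (background adjustment, quantile normalization and median polish). Partek 6 is named in the submitters' processing notes. A genome build was not given in the sources used here. Litters, 2 at P9 and 3 at P14, were not assigned to mice, and p-values measure the spread between these mice. Arrays have no read depth, and their number limits the precision.

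Symbols came from the platform annotation. Of 35557 loss-of-function probe sets, 21789 carried 1 symbol, 1621 more than 1 and 12147 none. Of 41345 probe sets of the P21 arrays, these numbers were 23521, 1820 and 16004. Only probe sets with 1 symbol were used, and a gene was read from its brightest probe set. The limma package (version 3.58.1, R 4.3.3) was run on the arrays of each age with lmFit and eBayes, testing mutant against control on 2 sides and adjusting p-values over all genes by Benjamini-Hochberg. The code was tested on simulated data. A first simulation, with the spreads measured per gene, missed its tolerance for unchanged genes at P9, where too many passed the unadjusted threshold, so spreads were then drawn from the prior that limma fits. P-values at P9 may be too small if the true spreads are more uneven than that prior, and a repeat with the measured spreads called none of its changed genes at P9.

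The members and lists were chosen with earlier results of these data known. *Gad1*, *Gad2*, *Slc32a1*, *Pvalb* and *Lhx6*, and any member with a p under 0.05, are given for every mouse. From each list the counts, the median and up to 3 genes by p are given where the list bears on interneurons. The alternatives were quantile normalization, centring on the array median, the dimmest 30% of genes left out, no moderation, trended and robust moderation, the mean of probe sets, each mouse left out, all loss-of-function groups in 1 fit, sex as a covariate, and the set of mice 1 and 2 as a block or left out. Promoter sequences came from RefSeq. No pairing of mice was used.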

Additional observations from a re-analysis of the deposited data

How the results depend on the processing

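The number of members called at P9 was 0, and 1, *Calb2*, without the dimmest genes and 1 with trended and robust moderation. At P14 it was 0, with 3 when the set of mice 1 and 2 was a block, 1 in mice 9 to 12 alone, and 0 to 1 when a mouse was left out (*Nos1*, without mutant mouse 1). At P21 it was 0 in every alternative run. Of all genes, 15 were called at P9, with 61 without the dimmest genes, 0 with no moderation, 235 with trended and robust moderation, 7 with the mean of probe sets, 42 with all groups in 1 fit and 0 to 13 when a mouse was left out. At P14 217 were called, with 341 after quantile normalization, 18 with no moderation, 38 with sex as a covariate, 1333 with mice 1 and 2 as a block, 984 in mice 9 to 12 alone, 480 with all groups in 1 fit and 27 to 304 when a mouse was left out. At P21 0 were called, with 16 under trended and robust moderation and 0 to 2 when a mouse was left out. The interaction of genotype with age in the loss-of-function mice had 0 calls with either moderation. The cause of these differences was not tested.

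The sign reversed when a mouse was left out for *Gad2* at P9 (range -0.02 to 0.19), *Slc32a1* at P9 (-0.06 to 0.16), *Pvalb* at P9 (-0.30 to 0.17), *Gad2* at P14 (-0.18 to 0.07) and *Pvalb* at P14 (-0.05 to 0.29), and also for *Gad2* at P14 with sex as a covariate (0.18), *Pvalb* at P14 in mice 9 to 12 alone (-0.04) and *Slc32a1* at P21 with the mean of probe sets (0.06). Of 414 values of the 31 named gene results under alternatives, 374 kept their direction and their side of the threshold, 24 lost a call, 7 gained a call and 9 reversed. Sex could be a covariate at P14 alone, since the P21 mice were male. No paired analysis was possible because litters were not assigned to mice and no mutant shares its number with a control of its age.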
